A study of Mus musculus with 24 samples.

Results

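Transcript levels were compared between 4 and 24 hr after the start of a KBrO3 treatment, in mouse embryonic fibroblasts (MEFs) that had been treated with KBrO3 and with nothing else. The comparison rests on 6 of the 24 arrays of the series, the 3 labelled KBrO3 24 against the 3 labelled KBrO3 4, each hybridised with RNA of 1 biological replicate. The cells received 20 mM KBrO3 for 1 hr, were washed and were left in fresh medium for 3 or 23 hr. Of the other arrays, 3 hold untreated cells of the same array set, labelled 4 hr, and 6 hold cells given the same KBrO3 treatment together with 150 uM bisphenol A (BPA), called co-exposure, at 4 and 24 hr. Co-exposed cells were in BPA from 1 hr before KBrO3, during it and, after the wash, for the remaining 3 or 23 hr. A second array set holds 3 other untreated samples and 6 samples of cells given 150 uM BPA alone, labelled 4 and 24 hr. The cells given BPA alone stayed in it throughout, whereas KBrO3 was washed out after 1 hr. All groups share 1 immortalised Ku70-/- line, in which Xrcc6, the gene of the Ku70 subunit that starts non-homologous end joining, is deleted, so that no value here speaks for cells with intact Ku70. No untreated culture was labelled 24 hr, and recovery from KBrO3 cannot be told apart from 20 further hr in culture after a change of medium.

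KBrO3 oxidises guanine in DNA and thiols in the cell. Oxidised bases are cut out by DNA glycosylases of the base excision repair pathway, while the transcription factor NRF2, held down by KEAP1 in resting cells, turns on genes for glutathione synthesis, thioredoxin reduction and heme breakdown. Stress kinases induce immediate early transcription factors and their own phosphatases, heat shock factor 1 induces chaperones, and p53 with the checkpoint kinases can halt the cell cycle until damage is repaired.

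Each level is a relative log2 signal, the log2 of the processed intensity of a probe minus the 75th percentile of its array, and differences are 24 hr minus 4 hr unless stated otherwise. A probe entered the comparison when it was well above background on all 3 arrays of either time, which left 25386 probes for 13231 protein-coding genes. A gene rose or fell when 1 of its probes passed a Bonferroni-adjusted p of 0.01 in limma and a 1.5-fold change, and its printed value is that of its brightest tested probe. With 3 arrays a group the number of arrays limits the precision, and in RNA from whole cultures fewer cells of a type and less RNA per cell cannot be told apart.

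Replicates lay close together. The correlation between arrays was 0.9966 to 0.9969 within the 4 hr group and 0.9914 to 0.9968 within the 24 hr group, against 0.9378 to 0.9433 between both times. The first principal component held 56.9% of the variance, with the 4 hr arrays at 86.7, 86.6 and 88.5, the 24 hr arrays at −48.2, −65.4 and −67.9 and the untreated arrays at −47.7, −47.1 and −40.6. The second held 24.3% and set the untreated arrays, at −90.2 to −88.5, apart from the 24 hr arrays at 19.8 to 27 and the 4 hr arrays at −7.8 to −6.4. Replicate 1 at 24 hr stood apart from its group, with 68.1% of its spots well above background against 62.1% and 59.6%, and it was the 1 KBrO3 24 hr array on a slide with co-exposed 4 hr samples. No slide held KBrO3-only arrays of both times, so a difference between slides cannot be told apart from one between the times. The 4 hr arrays all shared 1 slide, which may add to their closeness. Without replicate 1 at 24 hr 2038 genes rose and 2391 fell. All 12 fibroblast markers were well above background on every 4 hr array and 11 on every 24 hr array. Of the markers of other cells, 5 of 10 of macrophages and leukocytes, 3 of 8 of endothelium, 3 of 8 of epithelium and 6 of 10 of muscle were so on every 4 hr array, among them Cd14, Vwf and Krt14, while the defining genes Ptprc, Pecam1, Cdh5 and Cdh1 were well above background on none. The Xrcc6 probe read −0.60, −0.54 and −0.59 at 4 hr and 0.34, 0.38 and 0.40 at 24 hr, and since it is not known here whether it lies in the deleted part, it does not check the deletion. Its called difference of 0.95 was not called on the 6 arrays alone or in the fit of all 24 arrays.

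Between 4 and 24 hr 2299 genes rose and 2658 fell, which is 17.4% and 20.1% of the genes tested, and 23 others had probes called in both directions. At a Benjamini-Hochberg adjusted p of 0.05 the counts were 3158 and 4371, or 23.9% and 33%. At 80.3% of probes the unadjusted p was under 0.05. The largest changes were falls. Among genes well above background on all 6 arrays, 363 fell and 98 rose more than 4-fold, and 103 fell and 4 rose more than 8-fold. The balance of both directions depends on the scaling, because 46.4% of the called genes rose with the 75th percentile, 57.2% with the array median and 58.7% with quantile normalization, where the median over all genes was −0.12, 0.03 and 0.09. When only probes bright on all 6 arrays were kept, 2281 genes rose and 2622 fell.

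Hmox1, the heme oxygenase that opens the heme ring and a classic NRF2 target, had the largest fall. Its relative log2 signal was 9.19, 9.13 and 9.25 at 4 hr and 2.80, 2.83 and 2.89 at 24 hr, and 2.94, 2.90 and 3.06 in untreated cells. It fell 81.6-fold (log2 difference −6.35, SE 0.063, adjusted p = 2.28e-14), and the 24 hr arrays lay just below the untreated ones. Atf3, a stress-induced transcription factor, read 5.47, 5.50 and 5.47 at 4 hr and 0.29, 0.40 and 0.43 at 24 hr, with −0.45, −0.44 and −0.34 in untreated cells, a fall of 34.5-fold (adjusted p = 3.63e-14). Krt16, a keratin of stressed epithelium, fell 47.1-fold from 4.48, 4.47 and 4.46 to −1.08, −1.14 and −1.04, and untreated cells were at −1.66 to −1.51. Ptgs2, the inducible cyclooxygenase, fell 33.1-fold from 4.73, 4.73 and 4.80 to −0.37, −0.26 and −0.26. In all 4 genes the 3 arrays at each time lay within 0.2 of each other and the times were far apart.

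Other large falls were of genes with more varied levels at 4 hr against untreated cells. Aldh1a3, a retinaldehyde dehydrogenase, fell 57.3-fold (adjusted p = 4.46e-08) from 0.80, 0.78 and 0.74 to −5.02, −5.07 and −5.11, below the −3.03 to −2.64 of untreated cells. Tent5c, a noncanonical poly(A) polymerase, fell 38.9-fold (adjusted p = 1.23e-15) and ended at −1.76 against untreated on the log2 scale. Cyp2f2, a cytochrome P450, was at 2.94, 2.99 and 2.92 in untreated cells, at 2.21, 2.21 and 2.20 at 4 hr and at −3.06, −3.05 and −2.72 at 24 hr. That is a fall of 35.5-fold between the times, against a difference of −0.74 between 4 hr and untreated cells. Hp, which codes for the hemoglobin scavenger haptoglobin, had the same order of groups, with 7.81, 7.74 and 7.82 in untreated cells, 7.55, 7.46 and 7.55 at 4 hr and 2.33, 2.36 and 2.44 at 24 hr. Its fall was 35.3-fold (adjusted p = 1.82e-12). Lbp, the lipopolysaccharide-binding protein, and Ggt5, a gamma-glutamyl transferase of leukotriene metabolism, fell 32.1-fold and 26-fold and likewise lay at −4.83 and −5.17 against untreated at 24 hr. Il18r1, a subunit of the interleukin-18 receptor, fell 32.7-fold but was not well above background on any untreated array, and Egr4, an immediate early factor, fell 28-fold with 1 of 3 untreated arrays above background. The calls of Il18r1 and Egr4 were lost with normexp correction.

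Among genes bright on all 6 arrays rises were smaller. Ankle1, an endonuclease that cuts chromatin bridges at the end of mitosis, led them with −2.55, −2.65 and −2.65 at 4 hr and 0.80, 0.66 and 0.70 at 24 hr, a rise of 10.1-fold (log2 difference 3.34, SE 0.092, adjusted p = 4e-09), and untreated cells lay between at −0.31, −0.43 and −0.19. Sapcd2, a regulator of spindle orientation, rose 9.31-fold from 0.43, 0.43 and 0.42 to 3.57, 3.66 and 3.70. The uncharacterised 1700007K13Rik rose 8.48-fold and Rtkn2 8.03-fold. Pimreg, which takes part in the metaphase to anaphase step, rose 6.37-fold. Txnip, which binds and inhibits thioredoxin and limits glucose uptake, read 2.80, 2.64 and 2.73 in untreated cells, −0.94, −0.77 and −0.84 at 4 hr and 1.75, 1.86 and 1.88 at 24 hr. Its rise was 6.41-fold (adjusted p = 2.92e-09), and it was still at −0.89 against untreated at 24 hr. The remaining genes among the 12 largest rises were Ttc30b, Oxld1, Tnfaip8l1, 9930012K11Rik, Trim34a and Dnajc12, with rises of 2.68 to 2.93 on the log2 scale. With normexp correction the calls of Ttc30b (1.64), 9930012K11Rik (1.23) and Dnajc12 (1.76) were lost, and that of Ttc30b also with slide as a random block.

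Where all arrays of a time were dim, the change is a lower bound, given as at least so many fold. It was set by the lowest signal among probes well above background, or by the dim probe's own signal where that was higher, and it applied to 63 genes dim at 4 hr and 66 dim at 24 hr. Klf15, a Kruppel-like factor of glucose and amino acid metabolism, was not well above background at 4 hr (−5.30, −5.38 and −5.14) and was at −1.56, −1.57 and −1.77 at 24 hr, at least 11.3-fold higher (adjusted p = 1.99e-08). Untreated cells had 0.34, 0.44 and 0.27, so that the 24 hr level was still at −1.99 against them on the log2 scale. Robo3, an axon guidance receptor, was at least 9.96-fold higher, Plpp6, a lipid phosphatase, at least 9.09-fold and Tlr3, the sensor of double-stranded RNA, at least 7.13-fold. In the other direction Nppc, the C-type natriuretic peptide, was at least 22.9-fold lower at 24 hr, and Vit, the matrix protein vitrin, at least 20.1-fold. Spry4, a feedback inhibitor of ERK signalling, was at least 18.4-fold lower, and Lef1, a nuclear partner of beta-catenin, at least 16.4-fold. These bounds rest on the background handling, since with normexp correction the log2 differences of Robo3 (1.80), Plpp6 (1.38), Tlr3 (1.14), Nppc (−3.10), Spry4 (−2.72) and Lef1 (−2.70) were smaller and not called. On the 6 arrays alone Nppc and Vit were not called.

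**Figure D1:**
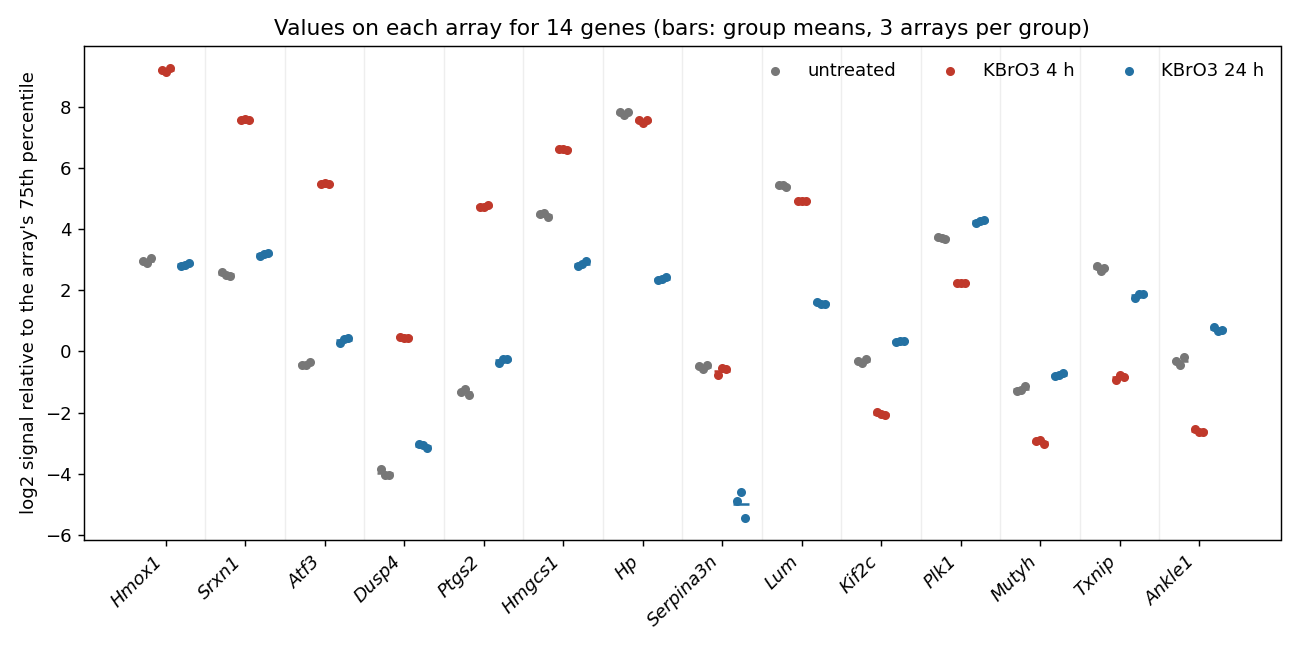
Relative log2 signal (log2 of the processed intensity minus the array's 75th percentile) of 14 genes on each array of untreated cells and of cells 4 and 24 hr after the start of KBrO3, where points are single arrays and bars are the means of 3. Hmox1 drops from 9.13 to 9.25 at 4 hr to 2.80 to 2.89 at 24 hr beside its untreated level, Hp and Lum stay near untreated at 4 hr and are low at 24 hr, and Kif2c, Plk1 and Ankle1 are lowest at 4 hr.

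The early response genes were down nearly as a block. Of 26 listed immediate early transcription factors 25 were tested, and 24 of them fell and none rose, beside 20.1% and 17.4% of all genes, with a median of −2.15 against −0.12 over all genes. At 4 hr 22 of these 25 had been higher than in untreated cells, beside 18.7% of all genes, with a median of 2.1. At 24 hr the median against untreated was 0.08. Nr4a1, an orphan nuclear receptor, read 6.15, 6.13 and 6.11 at 4 hr and 2.22, 2.25 and 2.26 at 24 hr, a log2 difference of −3.89 (adjusted p = 8.81e-15). Fos fell by 2.41, Egr1 by 1.93 and Myc, the growth-promoting factor that pairs with MAX, by 2.29, and each ended within 0.4 of its untreated mean. Fosl1, another partner of JUN in AP-1, fell by 2.07 but remained 2.40 above untreated. The member that was not called was Klf2, at −0.70 (adjusted p = 1). Promoters of 19 tested members, from 250 bases before to 50 after the start of the gene, held no copy of TGACGTCA or TGANTCA, the letters of the cAMP response element and of the AP-1 site, which 3.15% and 5.25% of all matched promoters held.

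Most of the phosphatases and adaptors that switch ERK signalling off fell too, and so did some of the growth factors that switch it on through the EGF receptor. Among 15 MAP kinase phosphatases and other ERK feedback genes 13 fell and 1 rose, beside 20.1% of all genes lower and 17.4% higher, with a median of −1.92. Dusp4, a nuclear phosphatase of ERK, was at 0.48, 0.44 and 0.45 at 4 hr and at −3.04, −3.07 and −3.15 at 24 hr. Dusp6, its cytosolic relative, fell by 3.14 and was at −0.23 against untreated, whereas Dusp2 fell by 3.90 and was still 2.65 above untreated. Dusp7 was not called, at −0.20. The 1 called rise, in Dusp14, came from another probe, while its brightest probe read −0.86 with replicate 1 at 24 hr apart from the other two. Of 10 tested EGF-family ligands and receptors 5 fell and 1 rose. Areg, the ligand amphiregulin, went from 2.18, 2.22 and 2.17 to −1.73, −1.82 and −1.67 (adjusted p = 5.74e-09), and its 24 hr level lay 3.15 above untreated. Ereg fell by 3.92 and Hbegf fell by 3.14, and Hbegf was 2.22 above untreated at 24 hr. The receptor Egfr fell by 1.01 from a 4 hr level that was already at −0.67 against untreated, and its partner receptor Erbb2 rose by 0.86 (adjusted p = 0.000313). The calls of Egfr and Erbb2 were lost with normexp correction, on the 6 arrays alone and in the fit of all 24 arrays, and those of Dusp4, Dusp2 and Areg with normexp correction.

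NRF2 target genes were tested at 35 of 36 listed members, of which 23 fell and none rose, beside 20.1% of all genes lower and 17.4% higher, with a median of −1.25 (−0.73 with quantile normalization). Against untreated cells the median was 1.2 at 4 hr and 0.12 at 24 hr. Beside Hmox1, Srxn1, the sulfiredoxin that repairs overoxidised peroxiredoxins, was at 2.60, 2.51 and 2.45 in untreated cells, at 7.57, 7.58 and 7.57 at 4 hr and at 3.11, 3.18 and 3.23 at 24 hr, a fall of 21.1-fold (adjusted p = 8.13e-12). Slc7a11, the cystine importer that feeds glutathione synthesis, fell by 4.25 and ended 0.78 above untreated. Gclc, the catalytic subunit of glutamate-cysteine ligase, fell by 3.87 and its modifier Gclm fell by 3.29, the latter from 2.16, 2.13 and 2.10 to −1.16 on all 3 arrays, and Gclc was 1.44 above untreated at 24 hr. Txnrd1, thioredoxin reductase, fell by 3.19 and Nqo1, a quinone reductase, by 0.82, which was not called with the array median (−0.67). Gsta1, a glutathione S-transferase singled out after its values were seen, read 2.09, 2.06 and 2.05 at 4 hr and 0.75, 0.77 and 0.77 at 24 hr (adjusted p = 1.63e-06), while 1 of 3 untreated arrays was above background. Of 11 regulators of the pathway 5 fell and none rose. Nfe2l2, which codes for NRF2 itself, fell by 1.64, Bach1, the repressor of Hmox1, by 1.58, and the small Maf partner Maff by 2.33. Keap1 was not called, at 0.75. The calls of Nqo1 and Gsta1 were lost with normexp correction and in the fit of all 24 arrays. Those of Nqo1 and Bach1 were lost on the 6 arrays alone and with slide as a random block, and that of Bach1 also in the fit of all 24 arrays.

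The letters TGACNNNGC, the core of the antioxidant response element, were found on either strand in 8 of 29 promoters of NRF2 targets (27.6%), beside 14.4% of the 10588 promoters matched to tested genes. Promoters run from 250 bases before to 50 after the start and come from RefSeq on GRCm38.p6. The pair printed here belongs to the called members that hold the letters and fell most, and capitals mark the match. These letters begin with TGAC, the same 4 bases as the cAMP response element, a match is a description and not a site shown to be bound, and 2121 matched genes have several listed starts of which the first was used.
Srxn1 (chr2:152105274-152105573, plus strand): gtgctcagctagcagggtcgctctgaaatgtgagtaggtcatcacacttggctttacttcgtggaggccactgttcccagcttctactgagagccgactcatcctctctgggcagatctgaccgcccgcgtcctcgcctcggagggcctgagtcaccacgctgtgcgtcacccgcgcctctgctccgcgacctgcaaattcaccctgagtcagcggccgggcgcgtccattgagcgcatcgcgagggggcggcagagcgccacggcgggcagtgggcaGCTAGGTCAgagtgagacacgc
Gclm (chr3:122245307-122245606, plus strand): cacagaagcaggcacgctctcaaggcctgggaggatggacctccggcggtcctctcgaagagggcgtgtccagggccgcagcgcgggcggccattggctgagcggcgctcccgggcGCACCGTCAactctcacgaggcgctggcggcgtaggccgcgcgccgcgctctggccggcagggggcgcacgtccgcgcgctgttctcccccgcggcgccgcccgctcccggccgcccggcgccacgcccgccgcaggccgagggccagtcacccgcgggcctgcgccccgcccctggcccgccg

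Chaperone genes receded. Of 23 tested cytosolic heat shock genes 16 fell and 1 rose, beside 20.1% of all genes lower and 17.4% higher, with a median of −1.02 (−0.40 with quantile normalization). The median against untreated went from 1.26 to 0.41, and 8 of the 23 were still higher than in untreated cells at 24 hr and 2 were lower, beside 11.9% and 14.9% of all genes. Hspa1a, the inducible HSP70, was at 2.90, 2.91 and 2.94 in untreated cells, 6.30, 6.36 and 6.35 at 4 hr and 4.24, 4.23 and 4.22 at 24 hr (adjusted p = 1.03e-10), still 1.32 above untreated. Bag3, a cochaperone of HSP70, fell by 2.76 to −0.87 against untreated, and Hsph1, the HSP105 chaperone, fell by 2.25 to 0.20 above. Hspa4l, an HSP110 family member, rose by 1.33 (adjusted p = 6.36e-10) from 1.62, 1.56 and 1.59 to 2.93, 2.93 and 2.92, where untreated cells had 1.71 to 1.75. Hsp90ab1, the constitutive HSP90, was not called at −0.49. The heat shock element, searched on both strands as GAA, TTC and GAA blocks with gaps of 2 bases, was in 4 of 18 matched promoters (22.2%) against 0.368% of all matched promoters. It is shown in capitals for the called members that hold it and fell most, of which Dnajb6 lost its call with normexp correction (−1.19).
Hsph1 (chr5:149636287-149636586, minus strand): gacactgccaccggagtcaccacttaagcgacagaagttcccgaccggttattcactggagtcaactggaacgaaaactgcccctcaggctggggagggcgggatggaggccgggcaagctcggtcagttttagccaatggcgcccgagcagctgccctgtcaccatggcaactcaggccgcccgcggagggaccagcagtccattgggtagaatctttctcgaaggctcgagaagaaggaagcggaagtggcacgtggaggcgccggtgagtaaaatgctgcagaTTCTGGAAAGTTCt
Dnajb6 (chr5:29735648-29735947, plus strand): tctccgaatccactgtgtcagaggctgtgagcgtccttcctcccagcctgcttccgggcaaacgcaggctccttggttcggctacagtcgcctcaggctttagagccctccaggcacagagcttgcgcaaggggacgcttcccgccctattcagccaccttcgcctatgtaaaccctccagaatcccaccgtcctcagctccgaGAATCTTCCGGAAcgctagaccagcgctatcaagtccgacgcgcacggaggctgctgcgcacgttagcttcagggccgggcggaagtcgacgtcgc

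In the endoplasmic reticulum 12 of 23 genes of the unfolded protein response fell and none rose, beside 20.1% of all genes lower and 17.4% higher, with a median of −0.67 (−0.38 with quantile normalization, where 6 fell and 1 rose). Dnajb9, a cochaperone of the lumen, fell by 2.45, Xbp1, the spliced transcription factor of the pathway, by 1.96 and Hspa5, the chaperone BiP, by 2.00 (adjusted p = 3.56e-07, with 1 spot flagged as an outlier left out). Xbp1 ended at −1.23 against untreated. Of 27 tested ATF4 targets 11 fell and none rose, with a median of −0.38 (−0.14 with quantile normalization, where 7 fell and 1 rose), and they were still 0.51 above untreated at 24 hr by the median. Sesn2, a stress-induced inhibitor of mTORC1, fell by 2.25 to 0.05 above untreated, and Ddit3, the factor CHOP, fell by 1.47 to 0.54 above. Asns, which makes asparagine, was not called at −0.52. Among 18 aminoacyl-tRNA synthetases, which load tRNAs with amino acids, 5 fell and 2 rose, and their median of −0.36 turned to 0.03 with quantile normalization. The calls of Hspa5 and Ddit3 were lost with normexp correction, that of Ddit3 also on the 6 arrays alone and that of Xbp1 in the fit of all 24 arrays.

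Inflammatory genes fell past the untreated level by the median. Of 40 listed NF-kB pathway, cytokine and chemokine genes 35 were tested, and 25 fell and none rose, beside 20.1% of all genes lower and 17.4% higher, with a median of −1.36. Their median against untreated was 0.68 at 4 hr and −1.13 at 24 hr. Il6 went from 0.40, 0.45 and 0.33 in untreated cells to 2.29, 2.31 and 2.29 at 4 hr and −1.62, −1.54 and −1.52 at 24 hr (adjusted p = 1.71e-12). The neutrophil chemokine Cxcl1 fell by 3.79 to −1.55 against untreated, and Csf1, the macrophage growth factor, fell by 3.02 to −0.20. Csf2 was dim on all 24 hr arrays and at least 7.98-fold lower. Tnf fell by 4.04 (adjusted p = 0.00123) with 1 of 3 arrays at 24 hr above background, and its call was lost without replicate 2 at 24 hr (−3.83) and without each of the 4 hr replicates (−4.06 to −4.01). The acute-phase and complement genes changed most of all lists by the median, at −2.81, with 17 of 20 lower and none higher. They had been near untreated at 4 hr, with a median of −0.22, and stood at −2.98 at 24 hr. Serpina3n, a protease inhibitor, fell by 4.35 and Saa3, serum amyloid A3, by 3.39, from 4.19, 4.20 and 4.21 to 0.74, 0.82 and 0.86 (adjusted p = 5.31e-13). C3, the central complement protein, was at 8.10, 8.05 and 8.14 in untreated cells, 8.07, 8.03 and 8.05 at 4 hr and 5.02, 5.07 and 5.18 at 24 hr. Cp and Cebpd were not called, at −0.73 and −0.26, and Cp was called without replicate 3 at 24 hr (−0.80). Interferon response genes did not share this fall, with 9 of 26 higher and 5 lower and a median of 0.14 (13, 1 and 0.72 with quantile normalization). Of 5 macrophage and leukocyte markers tested none rose and 2 fell, Lyz2 by 2.10 and Cd68 by 1.09 (not called with the array median, at −0.94). The summed log2 level of the list was 1.70 to 1.77 in untreated cells, 1.69 to 1.76 at 4 hr and 1.51 to 1.59 at 24 hr, with Ptprc, Itgam and Aif1 well above background on none. Their part in the fall of inflammatory genes was not tested. None of 3 endothelial and 4 epithelial markers tested was called. Oas1a, which senses double-stranded RNA, rose by 1.37, while Rsad2, the antiviral protein viperin, fell by 1.54. With normexp correction Csf2 (−1.96), Tnf (−2.03), Cd68 and Oas1a were not called, on the 6 arrays alone Csf2, Tnf and Serpina3n, and with slide as a random block Tnf.

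**Figure D2:**
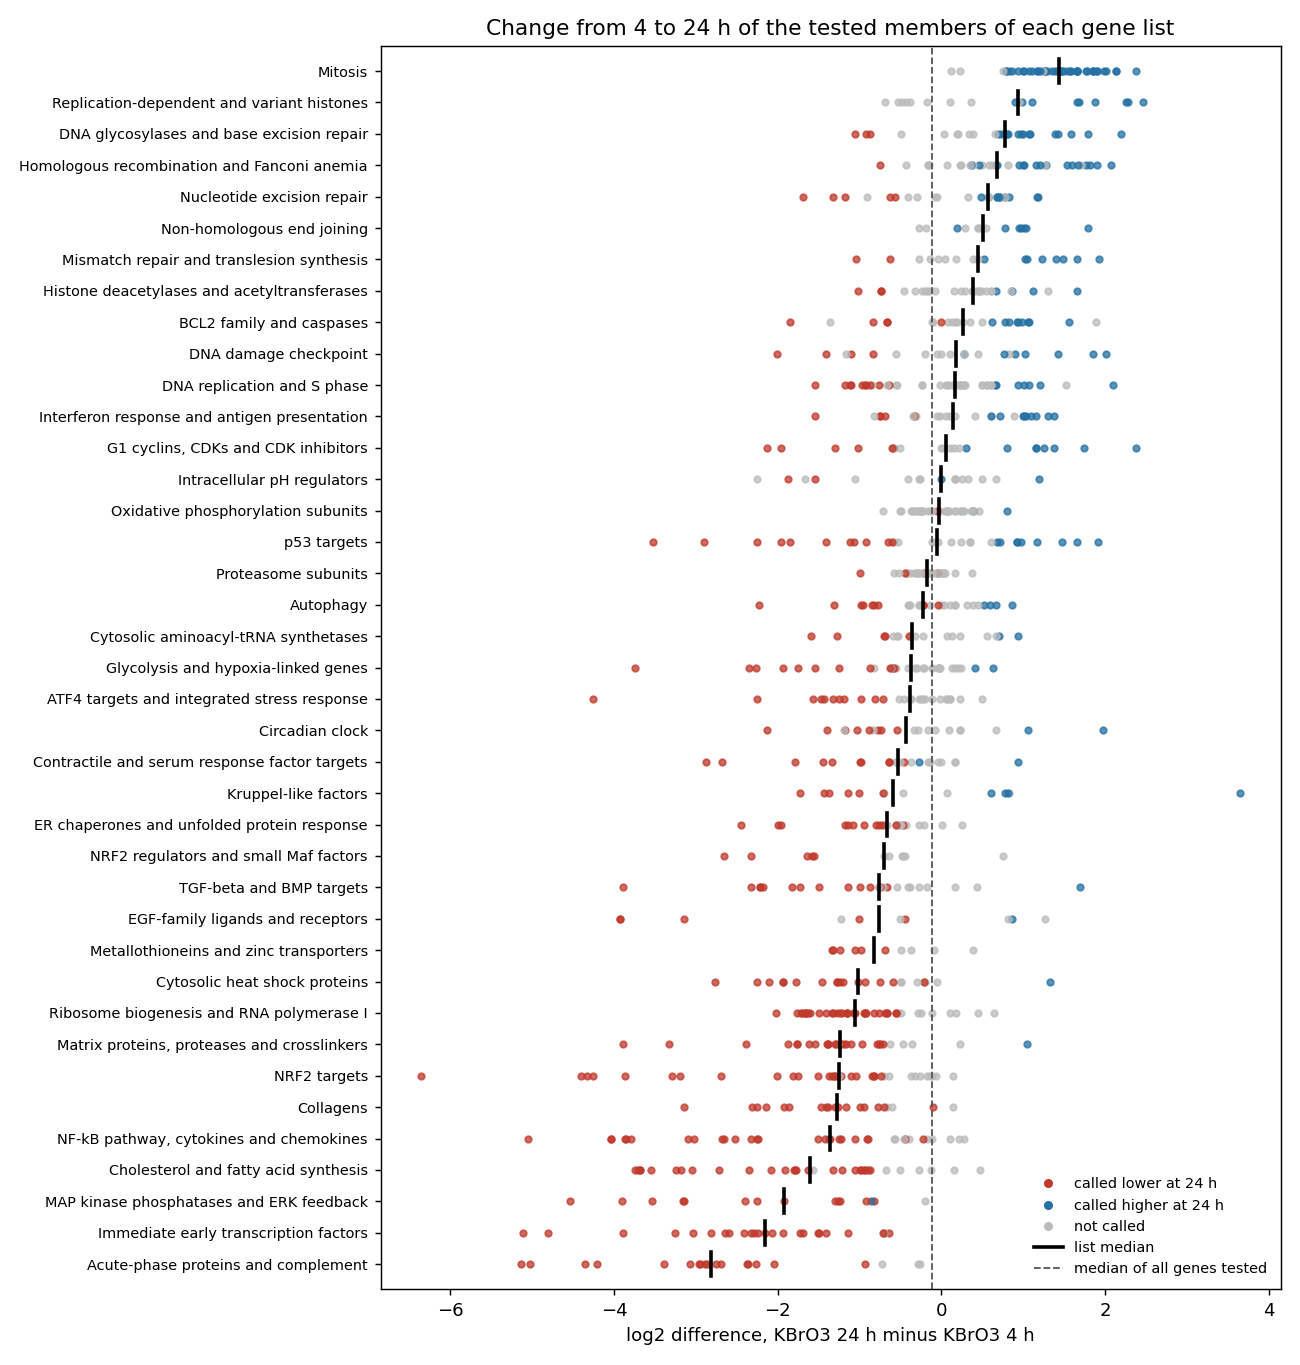
Log2 difference between KBrO3 at 24 and 4 hr for each tested member of the gene lists, sorted by the list median, where dots are genes at their brightest probe, blue and red mark genes called higher and lower by any probe, black bars are list medians and the dashed line is the median of all genes tested. The medians run from −2.81 for acute-phase genes to 1.44 for mitosis genes around −0.12 for all genes.

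Cholesterol synthesis went from above to below the untreated level. Of 32 genes of sterol and fatty acid synthesis 25 fell and none rose, beside 20.1% of all genes lower and 17.4% higher, with a median of −1.60. At 4 hr 16 had been higher than in untreated cells, beside 18.7% of all genes, and at 24 hr 19 were lower, beside 14.9%. The medians were 0.9 and −0.79. Hmgcs1, which condenses acetyl groups to HMG-CoA, was at 4.50, 4.52 and 4.38 in untreated cells, 6.61, 6.60 and 6.59 at 4 hr and 2.80, 2.84 and 2.94 at 24 hr (adjusted p = 2.32e-12). Idi1, an isomerase of the same path, fell by 3.71 to −1.52 against untreated, and the sterol-sensing inhibitor Insig1 fell by 3.55. Srebf1, the factor that governs fatty acid synthesis, and Acaca, its carboxylase target, were not called, at 0.47 and 0.15. With quantile normalization Srebf1 was called higher (0.81), and the list held 1 rise and 23 falls.

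Ribosome biogenesis genes fell as a group but stayed raised. All 42 listed genes were tested, 33 fell and none rose, beside 20.1% of all genes lower and 17.4% higher, with a median of −1.06. At 4 hr 40 were higher than untreated, beside 18.7% of all genes, with a median of 1.79. At 24 hr 28 still were, beside 11.9% of all genes, with a median of 0.78. Utp18, a subunit of the small-subunit processome, fell by 2.02 (adjusted p = 1.05e-07) and Rrs1, an assembly factor of the large subunit, by 1.77. Nolc1, a nucleolar scaffold, fell by 1.71 to 1.19 above untreated. Rrp12, which exports both subunits, fell by 0.93 and was 2.23 above untreated at 24 hr, and its call was lost without any 1 of the 6 arrays (−0.96 to −0.90) and with the array median (−0.78). The calls of Rrs1, Nolc1 and Rrp12 were lost on the 6 arrays alone, those of Nolc1 and Rrp12 in the fit of all 24 arrays, and that of Rrp12 also with normexp correction and with slide as a random block.

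Collagen and matrix genes were low at 24 hr but, by the median, near untreated at 4 hr. Of 22 listed collagen genes 20 were tested, 17 fell and none rose, beside 20.1% of all genes lower and 17.4% higher, with a median of −1.28, and the medians against untreated were 0.01 at 4 hr and −1.26 at 24 hr. Col1a1, the main chain of collagen I, was at 7.70, 7.59 and 7.79 in untreated cells, 7.75, 7.64 and 7.76 at 4 hr and 6.55, 6.52 and 6.59 at 24 hr (adjusted p = 5.4e-06). Its difference of −1.17 was −0.31 and not called with quantile normalization (adjusted p = 0.274), and it was not called with normexp correction (−1.13) or on the 6 arrays alone (adjusted p = 0.0165). With quantile normalization the medians were −0.71 for collagens, −0.59 for matrix genes and −0.39 for fibroblast markers. Col6a3, a chain of beaded microfibrils, fell by 2.31 and Col27a1, a fibrillar collagen of cartilage, fell by 3.15. Among 29 tested matrix proteins, proteases and crosslinkers 23 fell and 1 rose, with a median of −1.24. Lum, the small proteoglycan lumican, read 4.91, 4.90 and 4.92 at 4 hr and 1.63, 1.56 and 1.56 at 24 hr, with 5.36 to 5.45 in untreated cells, and Dcn, decorin, fell by 2.39. The 1 rise was Adamts5, an aggrecanase, by 1.04. Fibroblast markers, a list that overlaps the collagen and matrix lists in genes such as Col1a1 and Dcn, fell in 10 of 12, with none higher and a median of −1.05. Thy1 fell by 2.67 to a signal above background on 1 of 3 arrays, and Pdgfrb was not called at 0.08. The summed log2 level of these markers was 10.92 to 11.01 in untreated cells, 10.81 to 10.87 at 4 hr and 9.57 to 9.76 at 24 hr, and its part in the matrix result was not tested. The call of Adamts5 was lost with normexp correction and on the 6 arrays alone, and that of Thy1 with normexp correction (−1.62).

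Contractile and serum response factor targets held 10 falls and 2 rises among 22 tested, beside 20.1% of all genes lower and 17.4% higher, with a median of −0.53 that was −0.01 with quantile normalization, where 7 fell and 2 rose. Cnn1, the actin-binding calponin, fell by 2.87 and Tagln, transgelin, by 2.68, and the first ended at −2.16 against untreated. Of 6 muscle markers tested 1 rose and 2 fell. The summed log2 level of these markers was 5.32 to 5.38 in untreated cells, 5.83 to 5.84 at 4 hr and 3.75 to 3.90 at 24 hr, and Des, Ckm and Myh3 were well above background on none of these arrays. The part of muscle-like cells in the result was not tested. Of 24 TGF-beta and BMP targets 14 fell and 1 rose, with a median of −0.76. Inhba, an activin subunit, fell by 2.22 from 5.63, 5.62 and 5.54 to 3.39, 3.35 and 3.40, still 1.68 above untreated. Bmp4, the called rise, climbed by 1.69 (adjusted p = 6.29e-09) from 0.07, 0.10 and 0.08 to 1.75, 1.77 and 1.79 and so matched the 1.77 to 1.88 of untreated cells. Smad7, the inhibitory SMAD, fell by 2.33 (adjusted p = 0.00404), with replicate 1 at 24 hr at −0.64 against −1.36 and −1.46. Its call stood without that array and was lost without replicate 2 or 3 at 24 hr (−2.23 and −2.18) or without any 1 of the 4 hr arrays (−2.34 to −2.33). On the 6 arrays alone and with slide as a random block Smad7 was not called.

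Mitosis genes had the highest median of all lists. All 48 listed genes were tested, 44 rose and none fell, beside 17.4% and 20.1% of all genes, with single values from 0.12 to 2.37 and a median of 1.44. At 4 hr 23 of them were lower than in untreated cells, beside 20% of all genes, with a median of −0.78. At 24 hr 27 were higher, beside 11.9% of all genes, with a median of 0.64. Kif2c, a kinesin that takes microtubules off kinetochores, was at −0.30, −0.37 and −0.25 in untreated cells, −1.99, −2.06 and −2.09 at 4 hr and 0.30, 0.33 and 0.34 at 24 hr (adjusted p = 5.46e-11). Plk1, the kinase that drives entry into mitosis, read 3.74, 3.70 and 3.68, then 2.25, 2.23 and 2.25, then 4.21, 4.25 and 4.29 in the same order. In both genes the untreated arrays lay between the groups and none overlapped. Bub1b, a spindle checkpoint kinase, rose by 2.13 (adjusted p = 3.56e-08) and Ccnb1, the mitotic cyclin B1, by 1.76 (adjusted p = 6.39e-10). Bub3, Incenp, Plk4 and Cdk1 were not called, with 0.12, 0.23, 0.75 and 1.24, and Cdk1 was called without replicate 1 at 4 hr (0.97). With quantile normalization Incenp (0.86) and Cdk1 (1.52) were called. The call of Bub1b was lost on the 6 arrays alone.

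Promoters were matched for 41 of these genes. The letters TTTGAA, those of the cell cycle homology region bound by the DREAM complex and MuvB factors, stood on either strand in 28 of them (68.3%), against 12.2% of all matched promoters, and CCAAT, the letters of the NF-Y box, in 29 (70.7%) against 38.7%. Cholesterol synthesis genes, which fell, also held CCAAT in 19 of 22 promoters (86.4%). Both sets of letters are in capitals for the called members that hold either and rose most.
Kif2c (chr4:117178723-117179022, minus strand): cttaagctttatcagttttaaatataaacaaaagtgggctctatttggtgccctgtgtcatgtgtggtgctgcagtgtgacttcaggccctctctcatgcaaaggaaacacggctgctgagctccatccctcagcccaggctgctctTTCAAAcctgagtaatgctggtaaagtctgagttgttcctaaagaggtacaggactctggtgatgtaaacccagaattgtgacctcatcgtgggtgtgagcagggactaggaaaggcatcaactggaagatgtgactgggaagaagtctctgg
Bub1b (chr2:118597961-118598260, plus strand): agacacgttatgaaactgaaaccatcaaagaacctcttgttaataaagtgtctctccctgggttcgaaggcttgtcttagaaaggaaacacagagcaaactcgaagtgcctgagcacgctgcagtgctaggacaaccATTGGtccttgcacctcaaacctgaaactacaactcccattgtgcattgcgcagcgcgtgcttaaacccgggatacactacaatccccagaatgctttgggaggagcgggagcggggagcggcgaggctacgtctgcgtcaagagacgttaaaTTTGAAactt

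Of 18 tested histone genes, out of 24 listed, 9 rose and none fell, with a median of 0.93, whereas replication genes were called near the background shares. H1f5 and H1f4, linker histones, rose by 2.46 and 2.25, but probes of histone genes may share sequence between close copies, which makes the single gene uncertain. Among 47 genes of DNA replication and S phase 10 fell and 7 rose, beside 20.1% and 17.4% of all genes, with a median of 0.16. With quantile normalization 6 fell and 15 rose, and with the array median 6 fell and 8 rose. Tk1, thymidine kinase, rose by 2.10 and Pola2, a subunit of the primase complex, by 1.20. Orc1 and Cdt1, which license origins in G1, fell by 1.55 and 1.18 after being 2.66 and 1.22 above untreated at 4 hr. Of 22 cyclins, CDKs and CDK inhibitors of G1 8 rose and 6 fell, and their median of 0.06 turned to −0.02 with normexp background correction. Ccnd1, cyclin D1, rose by 1.74 from −0.70 against untreated at 4 hr to 1.04 at 24 hr. Cdkn2d, an inhibitor of CDK4, rose by 2.37 back to −0.16 against untreated, while Cdkn1c, an inhibitor of CDK2, fell by 2.13 to −2.33. The calls of Orc1 and Cdt1 were lost with normexp correction, that of H1f5 on the 6 arrays alone, and those of H1f5, H1f4 and Pola2 in the fit of all 24 arrays.

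Base excision repair genes were raised at 24 hr relative to 4 hr in most cases. Of 26 listed genes 25 were tested, Neil2 being the one left out, and 15 rose and 3 fell, beside 20.1% of all genes lower and 17.4% higher, with a median of 0.78. Their median against untreated was −0.44 at 4 hr and 0.16 at 24 hr. Mutyh, the glycosylase that removes adenine opposite oxidised guanine, was at −1.31, −1.26 and −1.12 in untreated cells, −2.92, −2.90 and −3.03 at 4 hr and −0.79, −0.76 and −0.72 at 24 hr (adjusted p = 3.34e-09). Poll, a gap-filling polymerase, rose by 1.79 and Aplf, a ligation scaffold, by 1.58. The glycosylases Neil3 and Mbd4 rose by 1.42 and 1.39, and Mbd4 was still at −0.75 against untreated. Parp1, the sensor of strand breaks, rose by 1.08 to 0.89 above untreated. Ogg1, the glycosylase for oxidised guanine itself, read 1.22, 1.17 and 1.02 in untreated cells, 0.40, 0.44 and 0.36 at 4 hr and 1.10, 1.08 and 1.20 at 24 hr. Its rise of 0.73 (adjusted p = 0.0085) was lost when any 1 of the 6 arrays was left out, with values of 0.69 to 0.75, although the groups did not overlap. The 3 falls were Apex2, a nuclease at abasic sites, by 1.06, Ung, the uracil glycosylase, by 0.92 and Pcna, the sliding clamp, by 0.87, and each had been about 1 above untreated at 4 hr. Under quantile normalization Ung at −0.71 and Pcna at −0.18 were no longer called, nor with the array median Apex2 at −0.91, Pcna at −0.72 and Ogg1 at 0.87. On the 6 arrays alone the calls of Mbd4, Parp1, Ogg1, Apex2, Ung and Pcna were lost, with normexp correction the same without Parp1, and in the fit of all 24 arrays the same without Mbd4. With slide as a random block the call of Ogg1 was lost.

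In the other repair pathways more genes rose than fell, beside 17.4% of all genes higher and 20.1% lower. Of 34 listed genes of homologous recombination and the Fanconi anemia pathway 33 were tested, 17 rose and 1 fell, with a median of 0.68. Eme1, a subunit of a structure-specific nuclease, read −1.18, −1.22 and −1.03 in untreated cells, −2.65, −2.98 and −2.65 at 4 hr and −0.58, −0.76 and −0.74 at 24 hr, a rise of 2.07 (adjusted p = 3.33e-06) with no overlap between both times. Rad54b, a DNA translocase, rose by 1.90 and Brca1 by 1.01. Fancd2 was not called although its value was 1.70 (adjusted p = 0.0736), and it was called without replicate 1 at 4 hr (1.97). The fall was Rbbp8, the end resection factor CtIP, by 0.75, a call lost without replicate 2 at 4 hr at the same value of −0.75, with quantile normalization (−0.41) and with the array median (−0.60). Among 26 nucleotide excision repair genes 10 rose and 5 fell, with a median of 0.57. Ercc1, a subunit of the incision nuclease, and Ddb2, a damage sensor, rose by 1.18 and 1.17, whereas Ercc8, of the transcription-coupled branch, fell by 1.69. Of 14 non-homologous end joining genes 7 rose and none fell, with a median of 0.51. Prkdc, the DNA-dependent kinase that Ku recruits, rose by 1.03 (adjusted p = 2.39e-07), and Lig4 and Xrcc5, the Ku80 partner of the deleted protein, were not called at 0.48 and 0.44. Mismatch repair and translesion synthesis genes had 8 rises and 2 falls among 18, with a median of 0.44. Polk, a translesion polymerase, rose by 1.65 (adjusted p = 2.06e-09). The calls of Rbbp8 and Prkdc were lost with normexp correction, those of Eme1 and Rbbp8 on the 6 arrays alone, and those of Brca1, Rbbp8 and Ercc1 in the fit of all 24 arrays.

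**Figure D3:**
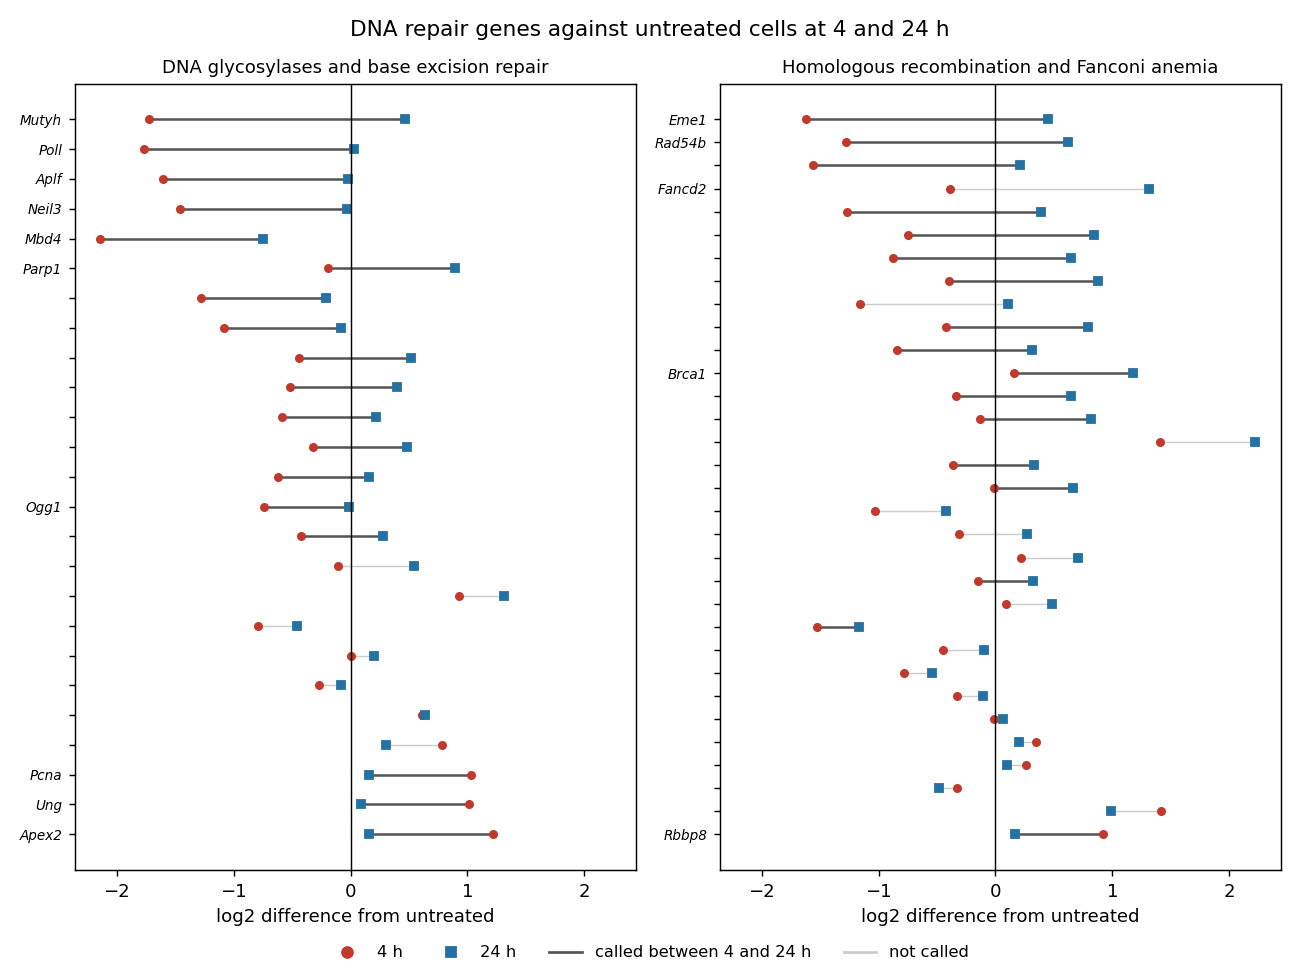
Log2 difference from untreated cells of tested genes of base excision repair (left) and of homologous recombination and the Fanconi anemia pathway (right) at 4 hr (red circles) and 24 hr (blue squares) after the start of KBrO3, each the difference of the means of 3 arrays, with a dark line where the gene was called between both times and a name where the text gives one. Most lines run from below zero at 4 hr to zero or above at 24 hr, and Apex2, Ung, Pcna and Rbbp8 run the other way.

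The checkpoint and p53 lists held both rises and falls, beside 20.1% of all genes lower and 17.4% higher. Of 20 tested checkpoint genes 7 rose and 4 fell, with a median of 0.18. Chek2, a kinase downstream of ATM, rose by 2.01 from −3.00, −3.05 and −3.11 to −1.12, −1.04 and −0.99, and Cdc25b, a phosphatase that opens mitosis, by 1.85. The stress-induced Gadd45g fell by 2.01 and Gadd45a fell by 1.41. Of 30 p53 targets 9 rose and 11 fell, and their median of −0.06 turned to 0.09 with the array median, to 0.17 with quantile normalization and to 0.01 without replicate 1 at 24 hr. Cdkn1a, the CDK inhibitor p21, was at 0.70, 0.61 and 0.72 in untreated cells, 3.76, 3.78 and 3.74 at 4 hr and 1.72, 1.80 and 1.89 at 24 hr (adjusted p = 1.34e-07), so that 1.13 of its rise of 3.08 remained. Mdm2, the ubiquitin ligase of p53, fell by 1.07 (not called with the array median, at −0.92) and remained 0.97 above untreated, and Plk3 and Plk2 fell by 2.90 and 3.52 to near untreated. Perp, a membrane protein of cell junctions, rose by 1.91. Of 25 tested BCL2 family members and caspases 9 rose and 5 fell, with a median of 0.26 (0.53 with quantile normalization). Pmaip1, the death activator NOXA, fell by 1.85, and Bmf, a death activator that had been at −4.38 against untreated at 4 hr, rose by 1.56 and was still at −2.82 at 24 hr (adjusted p = 0.000247). With normexp correction Chek2 (1.30), Mdm2 and Bmf (0.47) were not called, and on the 6 arrays alone Mdm2, Perp and Bmf. The call of Bmf was also lost in the fit of all 24 arrays and with slide as a random block.

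Clock, metabolic and protein turnover lists differed in how many members were called, beside 17.4% of all genes higher and 20.1% lower. Of 20 tested clock genes 8 fell and 2 rose. Dbp, an output factor of the clock, read 2.62, 2.65 and 2.64 in untreated cells, 0.18, 0.16 and 0.15 at 4 hr and 2.08, 2.16 and 2.18 at 24 hr (adjusted p = 4.61e-08), and the repressor Bhlhe40 fell by 2.13. Among 14 tested Kruppel-like factors 6 fell and 4 rose, which turned to 3 and 4 with the array median. Of 32 tested glycolysis and hypoxia-linked genes 11 fell and 2 rose, and the median of −0.37 was 0.00 with quantile normalization. Vegfa, the angiogenic growth factor, fell by 3.74 (adjusted p = 6.9e-14) to −0.32 against untreated. Metallothioneins and zinc transporters held 6 falls and no rise among 10 tested, and 4 falls with quantile normalization. Of 30 tested autophagy genes 10 fell and 4 rose, which turned to 3 and 4 with quantile normalization, and Sqstm1, the receptor p62 and itself an NRF2 target, fell by 2.23 from 8.14, 8.07 and 8.02 to 5.82, 5.79 and 5.93. The 28 histone deacetylases and acetyltransferases held 4 rises and 3 falls, and 17 tested regulators of intracellular pH 2 of each. Few of 36 oxidative phosphorylation subunits were called, 2 higher and 1 lower, and the median of −0.03 turned to 0.46 with quantile normalization and to 0.12 with the array median. Of 32 proteasome subunits 4 fell and none rose, and the median of −0.18 turned to 0.25 with quantile normalization. Both lists had a smaller share called than the 37.6% of all genes called in either direction.

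The comparisons of both times with untreated cells share arrays with the comparison between the times and are given only side by side. At 4 hr 2495 genes were higher and 2675 lower than in untreated cells, which is 18.7% and 20% of 13345 tested. At 24 hr 1576 were higher and 1962 lower, which is 11.9% and 14.9% of 13209. Against untreated cells the lists fell into several kinds. Immediate early, ERK feedback and NRF2 target genes stood 2.1, 1.55 and 1.2 above untreated at 4 hr by the median and within 0.2 of it at 24 hr. Ribosome biogenesis, ATF4 and heat shock genes were still 0.78, 0.51 and 0.41 above at 24 hr. NF-kB and cholesterol genes passed from 0.68 and 0.9 above to −1.13 and −0.79, whereas acute-phase, collagen and matrix genes were within 0.3 of untreated at 4 hr and at −2.98, −1.26 and −1.03 at 24 hr. Mitosis, recombination and histone genes passed from −0.78, −0.36 and −0.48 to 0.64, 0.39 and 0.4.

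**Figure D4:**
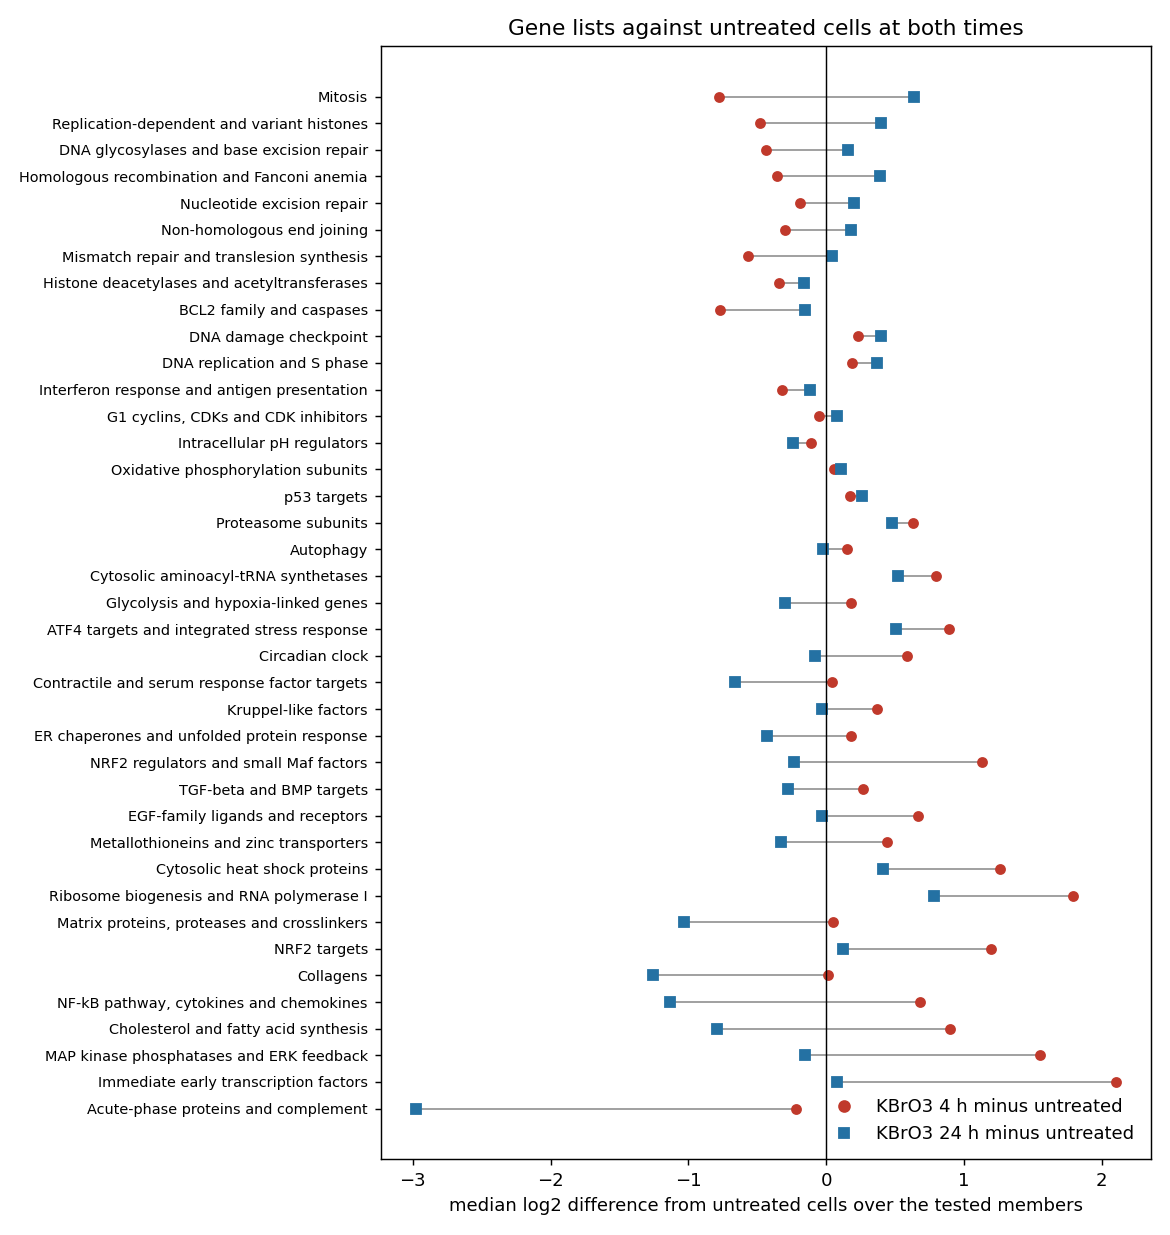
Median log2 difference from untreated cells over the tested members of each gene list at 4 hr (red circles) and 24 hr (blue squares) after the start of KBrO3, in the order of the list medians between both times. Immediate early genes lie at 2.1 and 0.08, acute-phase genes at −0.22 and −2.98 and mitosis genes at −0.78 and 0.64.

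Whether BPA altered this course was tested as a difference between changes, the change from 4 to 24 hr in co-exposed cells minus that with KBrO3 alone, in groups that share no arrays. The difference was higher for 516 genes and lower for 337 of 13991 tested, 3.69% and 2.41%, and 1 other gene had probes in both directions, in all 6.1%. At a Benjamini-Hochberg adjusted p of 0.05 these were 15.4% and 19.8% of genes. Across the 13231 genes the correlation between both changes was 0.827 (Spearman 0.812, a description across genes that are not independent), and 95.4% of the 4957 genes that rose or fell with KBrO3 alone had the same sign with co-exposure, against 82% of all 13231. Co-exposure itself raised 2790 genes and lowered 2675 from 4 to 24 hr, 20.3% and 19.5% of 13746. Among the 6 largest differences toward higher were Ddit4l, an inhibitor of mTORC1, with a change of −0.84 for KBrO3 alone and 2.19 for co-exposure (difference 3.03, adjusted p = 9.27e-09), and Gsta4, a glutathione S-transferase for lipid aldehydes, with −1.75 and 0.41. NRF2 targets differed toward higher in 17 of 35 and toward lower in none, with a median of 0.84. Hmox1 was among them, its change of −6.35 being 1.98 less negative with co-exposure. Among genes lower in the difference, Slco4a1, an organic anion transporter, had −1.61 and −4.66, and Rspo2, an enhancer of WNT signalling, 0.92 and −1.59. Cholesterol genes differed toward lower in 15 of 32 and toward higher in none, with a median of −0.71, while the 48 mitosis genes had a median difference of −0.17 and limma called none of them. With the array median as scale the median difference of all genes was 0.36 in place of 0.05, and 85.7% of the called differences were higher in place of 60.5%, so the directions of these lists are relative to the scale. The counts also rest on single arrays, since without replicate 3 of the co-exposed 24 hr group 946 genes were higher and 602 lower, with a share of 61.1% higher.

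**Figure D5:**
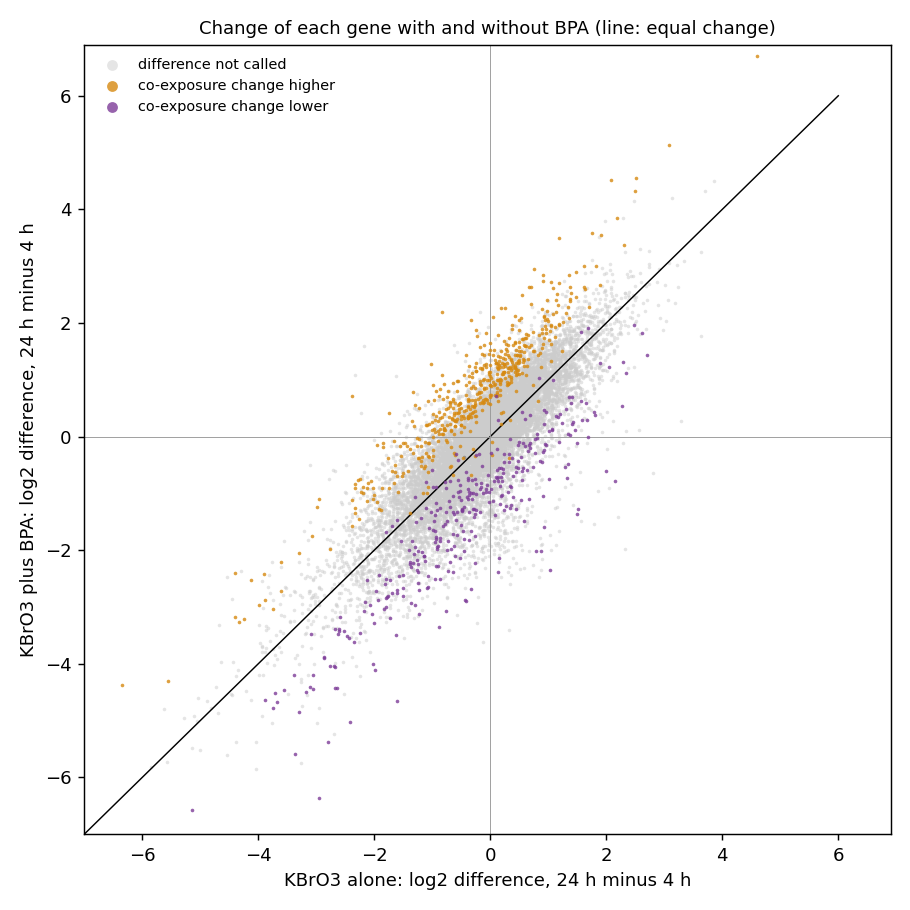
Log2 change from 4 to 24 hr of each gene tested with KBrO3 alone (x axis) against the same change in co-exposed cells (y axis), each from 3 arrays a time, with the line of equal change. Orange and purple mark genes whose co-exposure change was called higher (516 in all) or lower (337), and most grey genes follow the line.

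Cells given BPA alone had few called changes between the times. From 4 to 24 hr 13 of 15619 genes fell in them (0.0832%) and none rose. At a Benjamini-Hochberg adjusted p of 0.05 259 rose and 650 fell, 1.66% and 4.16%, and 20.1% of probes had an unadjusted p under 0.05. These counts come from a fit of only the 9 arrays of the second set, so they differ in precision from those of the 15-array fit. For Ptgs2 the SE was 0.3 there against 0.063 for the KBrO3 change, and its change of −2.54 was not called. The correlation with the KBrO3 change across genes was 0.195. The change with BPA alone differed from that with KBrO3 alone toward higher for 705 genes and toward lower for 530 of 15643, 4.51% and 3.39%, and 7.92% with those called in both directions, in a fit over both array sets, which were extracted with different software versions. By the Benjamini-Hochberg rule these shares were 29.1% and 19.1%. Hmox1 changed by 0.19 with BPA alone (difference 6.54, adjusted p = 4.23e-13), Hp by 0.84 and Lbp by 0.64, against −6.35, −5.14 and −5.01 with KBrO3. Of 48 mitosis genes 17 differed toward lower and none toward higher, and acute-phase genes differed toward higher in 10 and toward lower in none. By quantile normalization 44.6% of the called differences were higher, in place of 57.1%, and by normexp correction 69.1%.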

How the data were processed

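RNA of 3 biological replicates a group was labelled with Cy3 and hybridised to Agilent Whole Mouse Genome 1-color arrays. The authors deposited fluorescence intensity values per spot, as detrended by Agilent's Feature Extraction software (version 9.5.3.1 in the first set and 12.0.0.7 in the second, per the file headers) without normalization between arrays, and the values of their series matrix were the same. Intensity values were taken to log2, each array was scaled by subtracting the 75th percentile of its non-control spots, outlier-flagged spots were left out and spots of a probe were averaged (R 4.3.3 with the data.table package, version 1.17.8). Signals of dim spots are surrogates, so low levels are compressed. Probes were assigned to mouse RefSeq genes by accession (23075 probes) or by symbol or synonym (9659), and 18442 protein-coding genes had a probe.

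All 15 arrays of the first set were fitted in limma 3.58.1 (lmFit, eBayes), so that 5 groups share 1 estimate of spread. All 24 were fitted for the difference against BPA alone, and the 9 of the second set for the BPA change itself. Spread differs between the sets, and the fit of all 24 pools it. Printed p-values of genes are two-sided and Bonferroni-adjusted over all probes tested. The study states 3 biological replicates, and their numbers were not used as pairs, since deviations of same-numbered arrays correlated at −0.093, 0.075 and −0.151. Named genes are the 12 largest rises and 12 largest falls among genes bright on all 6 arrays, the 4 largest bounds each way, up to 3 called members each way of every list, members shown as not called, the 6 largest differences each way in both tests of a difference, Xrcc6 and listed DNA repair genes. Gsta1 was singled out after its values were seen. The comparison, the 39 gene lists and the 5 marker lists were chosen with earlier results of these data known, so that a list's count is a description. Promoters were matched for 10588 of 13231 tested genes by symbol or gene ID. The alternatives tried were quantile and median scaling, normexp correction with an offset of 50 (on median signals in the second set), other probe filters, a Benjamini-Hochberg threshold, slide and replicate blocks, smaller and larger fits, error weights, the series matrix, outliers kept, and leaving out each replicate. Some genes that the naming rule takes are not reported here.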

Additional observations from a re-analysis of the deposited data

Results flagged for a closer look

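The change from 4 to 24 hr after KBrO3 was tested against the same change in 2 other treatments, and the results that follow are log2 differences between changes, other treatment minus KBrO3 alone, named because the test of the difference itself passed, except where a gene is given as not called. None was weighed for a cause. Rankings are over probes well above background on all arrays of the 4 groups compared.

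Against co-exposure 854 genes differed. The 6 largest toward higher were Ddit4l by 3.03, Tbc1d2, a RAB7-activating protein, by 2.38, the secreted carbonic anhydrase Car6 by 2.3, the spindle protein Psrc1 by 2.19, Gsta4 by 2.16 and the stress cytokine Gdf15 by 2.11. Gdf15 changed by −1.33 with KBrO3 alone and by 0.79 with co-exposure. The called difference of Tbc1d2 was lost when any of 11 of the 12 arrays was left out (2.25 to 2.47) and stood without co-exposed 24 hr replicate 3. The 6 largest toward lower were Slco4a1 at −3.05, the matrix protein Aspn at −2.58, Rspo2 at −2.5, the cytokine Tslp at −2.44, Bmp2 at −2.32 and the secreted Ndnf at −2.28. The call of Rspo2 was lost without KBrO3 24 hr replicate 1 or 2, any 1 of the KBrO3 4 hr replicates, co-exposed 24 hr replicate 2 or co-exposed 4 hr replicate 1 or 3 (−2.52 to −2.44). Of these 12 genes 9 lost the call under at least 1 alternative. Among genes with the largest KBrO3 changes, 1700007K13Rik differed by 2.06, Hmox1 by 1.98, Krt16 by 1.26, Trim34a by −1.26 and Hp by −1.44. Robo3 differed by 2.09, a fitted value and not a bound, since its probe was dim at 4 hr in both treatments.

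Against BPA alone 1239 genes differed, across array sets of different software versions. The 6 largest toward higher were Hmox1 by 6.54, Lrg1 by 6.12, Kng1 by 6.11, Hp by 5.99, Ggt5 by 5.68 and Lbp by 5.64. Among other large KBrO3 falls, those that differed were Tent5c at 5.15, Atf3 at 4.41, Krt16 at 3.56, Aldh1a3 at 3.17 and Ptgs2 at 2.51, while Cyp2f2 at 3.52 (limma, adjusted p = 0.0104), Il18r1 at 2.94 (adjusted p = 0.583) and Egr4 at 0.63 (adjusted p = 1) were not called. The differences also passed, as fitted values and not bounds where probes were dim at 24 hr, for Vit at 6.95, Nppc at 4.69, Spry4 at 3.73 and Lef1 at 3.21. The 6 largest toward lower were H1f3 at −6.35 (on a probe other than its brightest), Dkk2 at −3.59, H4c9 at −3.56, Txnip at −3.56, Trim6 at −3.51 and Ttc30b at −3.45. The call of Dkk2, a WNT antagonist, was lost without any 1 of the KBrO3 arrays, of the BPA 4 hr arrays or BPA 24 hr replicate 1 (−3.64 to −3.51). Of the 12 genes with the 6 largest differences each way, 4 lost the call under at least 1 alternative. Among the large KBrO3 rises, those that differed were Ankle1 at −3.05, Tnfaip8l1 at −3.01, Sapcd2 at −2.9, Oxld1 at −2.82, Dnajc12 at −2.61, Pimreg at −2.41 and Rtkn2 at −1.94, while 1700007K13Rik at −1.80 (adjusted p = 0.0434) and Trim34a at −2.80 (adjusted p = 0.0424) were not called and 9930012K11Rik was called by a probe other than its brightest. The differences also passed, likewise fitted where probes were dim at 4 hr, for Tlr3 at −3.52, Plpp6 at −3.37, Robo3 at −2.85 and Klf15 at −1.89.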

How the results depend on the processing

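The change from 4 to 24 hr after KBrO3 counted 2299 genes higher and 2658 lower. Median scaling gave 1731 lower, normexp 642 higher and 847 lower, the Benjamini-Hochberg threshold 4371 lower, slide as a random block 1504 higher, the 6 arrays alone 733 and 1093, and all 24 arrays 1254 and 1546. Without 1 replicate the counts were 1884 to 2038 higher and 2140 to 2391 lower. The difference against co-exposure counted 516 higher and 337 lower, and gave 67 lower with median scaling, 28 and 16 with normexp, 2159 and 2775 with Benjamini-Hochberg, 246 and 137 with the slide block and 299 and 211 on the 12 arrays alone. Without 1 replicate it gave 294 to 946 higher and 191 to 602 lower, the highest counts both without co-exposed 24 hr replicate 3. The difference against BPA alone counted 705 and 530, and gave 391 higher with median scaling, 159 and 71 with normexp, 4558 and 2992 with Benjamini-Hochberg, 443 and 291 with the slide block and 169 and 116 on the 12 arrays alone, and 492 to 721 higher and 386 to 528 lower without 1 replicate.

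Replicate numbers do not pair these arrays. A replicate block gave 1915 higher and 2223 lower for KBrO3, 262 and 182 for the difference against co-exposure and 592 and 431 for that against BPA.

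Called members of lists, both directions together, moved as follows, with list sizes as given in the results. Over all 13231 genes tested the main fit called 2299 higher and 2658 lower, and quantile normalization 2852 and 2007. Median scaling called 2312 and 1731, and normexp 642 and 847. The lower list counts with normexp stand beside that lower count over all genes. Quantile normalization gave 7 unfolded protein response genes, 10 oxidative phosphorylation subunits, 7 autophagy genes and 6 fibroblast markers. Median scaling gave 7 unfolded protein response genes, 2 proteasome subunits, 7 autophagy genes and 1 macrophage marker. Without KBrO3 24 hr replicate 1, the one replicate left out for lists, 8 autophagy genes were called. With normexp, stress lists held 8 MAP kinase phosphatases, 3 EGF family genes, 9 heat shock proteins, 11 NRF2 targets, 3 metallothionein and zinc genes, 13 p53 targets, 4 ATF4 targets, 1 tRNA synthetase, 3 unfolded protein response genes, 13 NF-kB genes and 3 interferon genes. Repair and cycle lists held 9 base excision, 5 nucleotide excision, 7 homologous recombination, 3 end joining and 4 mismatch repair genes, 5 checkpoint, 4 replication, 27 mitosis and 6 G1 genes and 5 histones. The others held 3 clock genes, 5 Kruppel-like factors, 6 glycolysis genes, 0 oxidative phosphorylation subunits, 17 ribosome biogenesis genes, 1 proteasome subunit, 3 autophagy, 2 BCL2 family and 2 pH genes, 10 collagens, 8 matrix, 6 contractile and 8 TGF-beta genes, 3 deacetylases or acetyltransferases, 4 fibroblast markers and 1 macrophage marker. The cause of these moves was not tested.

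For the 201 genes followed singly, 3762 of 4006 values under an alternative kept direction and side of the threshold, 219 lost the call, 24 gained it and 1 reversed, Dusp14, at 0.72 on the probe with the smallest p. Of the 252 values for 12 genes in each difference, 219 and 233 kept theirs and none reversed. Sensitivity is limited by 3 arrays a group and by probes near background, whose changes are bounds. It is also limited by slides, none of which holds arrays of KBrO3 alone at both times. Slide entered as a random block (correlation 0.642 for the change with KBrO3 alone), which cannot remove a difference between slides that goes along with the time.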
